A study of Homo sapiens with 12 samples.

Results

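Described here are PARP9, DTX3L, PARP14, PARP10, PARP12 and ZC3HAV1, 6 genes linked to the interferon response, together with PARP1 and PARP8, 2 relatives outside that set. They were matched by exact gene symbol and make up 8 of the 58288 gene identifiers in the deposited count table, of which 14088 passed the filter on low counts. All 8 passed it. The cells were MV3, an established human melanoma line from a lymph node metastasis, which was grown in 10% fetal bovine serum and kept for 3 h in 1% serum before the medium was exchanged. For the following 24 h the cells received RPMI medium taken from THP-1 cells, a human monocyte line, that PMA had turned into macrophages. The M1 medium came from such macrophages polarized with LPS and IFNγ, the M2 medium from macrophages polarized with IL4 and IL13, and the M0 medium from macrophages that had received PMA alone. Ctrl cells received fresh RPMI medium that no cell had conditioned. Each of the 4 groups had 3 samples, and no source used here says that they were separate cultures, so the p-values cover no more than sample-to-sample spread, some or all of which may be technical. How much PMA, LPS or added cytokine remained in the media was not measured, and each comparison with Ctrl holds conditioning by macrophages together with everything those macrophages were given.

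ADP-ribosyltransferases move ADP-ribose from NAD onto proteins or nucleic acids, as single units or as chains. PARP1 is the main chain-forming enzyme of the nucleus and binds DNA breaks, whereas PARP10, PARP12 and PARP14 attach single units and are transcribed in many cell types after interferon. PARP9 carries macrodomains that bind ADP-ribose and works in a complex with DTX3L, a ubiquitin ligase of the Deltex family, and that complex can place ADP-ribose on ubiquitin itself. ZC3HAV1, also called ZAP or PARP13, lacks the catalytic activity and binds CpG-rich viral RNA. The response to IFNγ acts largely through GAS elements, while type I interferons act through a complex that holds STAT2 and IRF9 on interferon-stimulated response elements (ISRE), to which IRF1 also binds.

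Library totals ran from 21788397 to 42921242 counts. Levels are given as CPM, counts scaled to the TMM-adjusted library total of tested genes. Group levels are mean ± SD with n = 3 per group. Differences are log2 fold changes from the edgeR quasi-likelihood fit, with p-values adjusted over all genes by Benjamini-Hochberg and called at 0.05. The standard error (SE) beside them comes from the spread of log2 CPM over the libraries compared, not from the fit. Macrophage markers were near 0 in all groups. Of the 12 listed 1, CD33, passed the filter, AIF1 had no read in any library, and the summed level of the 12 was 0.685 to 1.17 CPM in M1, 0.894 to 1.24 in M2, 0.911 to 1.16 in M0 and 1.24 to 1.53 in Ctrl. The melanocyte markers TYR and S100B had no read in any library, and of 7 such markers MITF alone passed the filter. Of 7 markers of dedifferentiated melanoma 6 passed the filter, all but NGFR, and in M1 against Ctrl VIM, EGFR, NT5E and TNC were called higher and AXL and SOX9 lower. Single libraries weigh on the M2 against M0 comparison. Its calls over all genes numbered 1765 higher and 1788 lower with all libraries, and 850 higher and 745 lower without M0 replicate 3. Leaving out M2 replicate 2 or M2 replicate 3 also lowered both counts, with numbers given in the last section. Calls of members in M2 against M0 are also given without M0 replicate 3 and M2 replicate 2 together.

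The promoters of 4 members are shown because each holds the ISRE core next to an annotated start, and those of ZC3HAV1 and PARP1 because they do not. Sequences are from RefSeq on GRCh38.p14, 60 bases before to 10 bases from the start, 5′ to 3′ on the strand of the gene. Capitals mark a match to GAAANNGAAA on either strand, which reads TTTCNNTTTC when the match lies on the other strand. PARP9 is shown at the more downstream of its 2 listed starts.
PARP9, chr3:122564291-122564360, minus strand: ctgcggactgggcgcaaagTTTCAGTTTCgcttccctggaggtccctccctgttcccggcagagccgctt
DTX3L, chr3:122564278-122564347, plus strand: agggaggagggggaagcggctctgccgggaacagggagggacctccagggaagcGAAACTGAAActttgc
PARP14, chr3:122680779-122680848, plus strand: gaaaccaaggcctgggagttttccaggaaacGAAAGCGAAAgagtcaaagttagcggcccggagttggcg
PARP12, chr7:140062942-140063011, minus strand: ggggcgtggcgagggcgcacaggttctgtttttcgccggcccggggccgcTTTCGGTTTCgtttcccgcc
ZC3HAV1, chr7:139109711-139109780, minus strand: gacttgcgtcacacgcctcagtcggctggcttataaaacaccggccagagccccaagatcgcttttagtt
PARP1, chr1:226408084-226408153, minus strand: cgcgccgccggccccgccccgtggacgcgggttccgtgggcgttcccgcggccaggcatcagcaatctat

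The capitals in PARP9 and DTX3L are the same 10 bases, chr3:122564332-122564341, read from opposite strands. From the starts shown, these genes are transcribed away from each other, with starts 38 bases apart. The upstream PARP9 start, at chr3:122564784, lies within DTX3L. The shared match lies 32 to 41 bases before the PARP9 start shown, while it runs from 6 bases before the DTX3L start to the 4th base of the DTX3L transcript. In PARP14 the match lies 20 to 29 bases before the start, and in PARP12 it lies 1 to 10 bases before it. Over the whole 300-base windows, from 250 bases before to 50 bases after a start, the ISRE core was found on either strand in 1255 of 35116 windows (3.57%) and in 1195 of 27305 genes (4.38%). The GAS core TTCNNNGAA was found in 7.66% of windows and 9.38% of genes, and among the members it was present in PARP14, 32 to 40 bases before the start and apart from the ISRE match, and in ZC3HAV1, 96 to 104 bases before it. Neither core was found in the PARP1 window, in the 3 windows of PARP8 or in the window of the upstream PARP9 start. The table of promoters held 7 of the 8 members, and PARP10 is named only. A match is a description of letters in a window and does not show binding.

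On GRCh38, GENCODE 29 places PARP9 at chr3:122527924-122564577 on the minus strand, DTX3L at chr3:122564238-122575203 on the plus strand and PARP14 at chr3:122680618-122730840 on the plus strand, all 3 protein-coding. The annotations of PARP9 and DTX3L overlap by 340 bases, of which 217 are exonic in both, 2.43% of the PARP9 exons and 3.70% of the DTX3L exons. The libraries were stranded, but the strand setting of the counting is not given in the sources used here. If the counting did not use strand, reads from those bases cannot be told apart. PARP14 starts 105415 bases after the end of DTX3L. PARP15, the family member lying between DTX3L and PARP14, starts 2399 bases after the end of DTX3L and had 1 read in the 12 libraries together. PARP12 lies at chr7:140023744-140063721 and ZC3HAV1 at chr7:139043520-139109719, both on the minus strand, PARP1 at chr1:226360691-226408079 on the minus strand, and PARP8 at chr5:50665899-50846522 on the plus strand.

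PARP9 and DTX3L, the complex partners, were both far higher after M1 medium than after any other medium. PARP9 had 155, 167 and 152 CPM in M1 cells, 14.8, 16.6 and 16.0 CPM in M2 cells, 10.9, 10.1 and 9.78 CPM in M0 cells, and 21.5, 22.4 and 20.5 CPM in Ctrl cells. No 2 groups overlapped, and M0 cells were the lowest, below Ctrl. Against M0, PARP9 was 15.4-fold higher in M1 cells (log2 3.94, SE 0.06, adjusted p = 9.99e-15) and 1.54-fold higher in M2 cells (log2 0.62, SE 0.06, adjusted p = 0.000411). Against Ctrl, it rose in M1 cells (log2 2.88, SE 0.06, adjusted p = 2.59e-14) and fell in M2 cells (log2 -0.44, SE 0.06, adjusted p = 6.06e-05) and in M0 cells (log2 -1.06, SE 0.06, adjusted p = 1.15e-08). In bulk RNA a change in the number of expressing cells and a change in RNA per cell cannot be told apart.

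DTX3L had 545, 618 and 539 CPM in M1 cells, 92.2, 102 and 97.6 CPM in M2 cells, 75.0, 72.1 and 65.5 CPM in M0 cells, and 69.7, 65.0 and 63.5 CPM in Ctrl cells. M1 libraries were the highest and M2 libraries the next, while M0 and Ctrl overlapped. DTX3L was 8.01-fold higher in M1 than in M0 cells (log2 3.00, SE 0.09, adjusted p = 1.33e-13) and 1.37-fold higher in M2 than in M0 cells (log2 0.46, SE 0.07, adjusted p = 0.00112). Unlike PARP9, it did not pass in M0 against Ctrl (log2 0.10, SE 0.07, adjusted p = 0.251), and it was higher than Ctrl in M2 cells (log2 0.56, SE 0.06, adjusted p = 6.81e-06) as well as in M1 cells (log2 3.10, SE 0.07).

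PARP14, a macrodomain enzyme known as a cofactor of STAT6 in the IL4 response, followed DTX3L in order. It had 341, 371 and 335 CPM in M1 cells, 39.6, 46.0 and 45.1 CPM in M2 cells, 32.0, 34.5 and 25.6 CPM in M0 cells, and 33.0, 28.9 and 27.7 CPM in Ctrl cells. M1 libraries lay above all others, M2 libraries above M0 and Ctrl, and M0 and Ctrl overlapped. The rise over M0 was 11.4-fold in M1 cells (log2 3.51, SE 0.14, adjusted p = 8e-13) and 1.42-fold in M2 cells (log2 0.51, SE 0.15, adjusted p = 0.00322). M0 against Ctrl did not pass (log2 0.03, SE 0.15, adjusted p = 0.798).

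**Figure D1:**
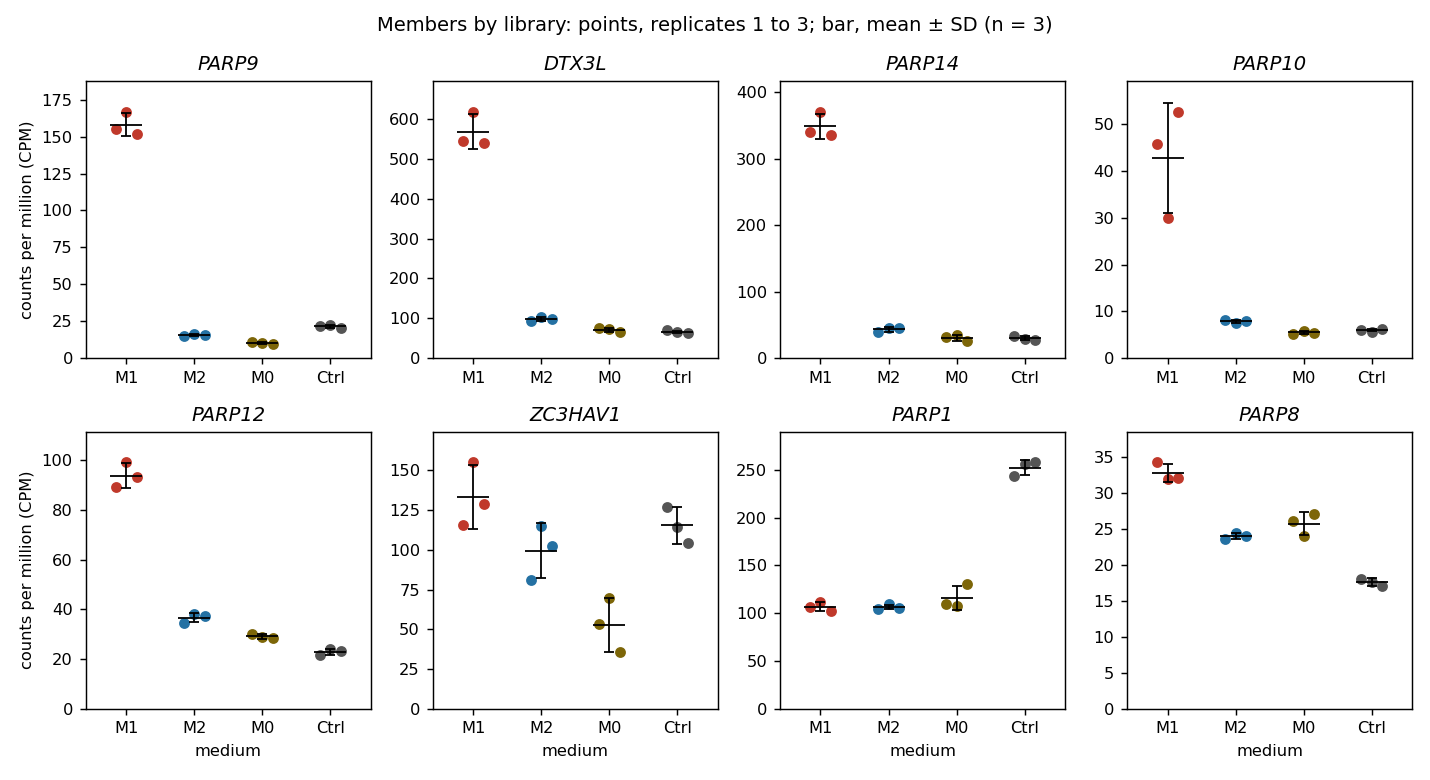
CPM of each of the 8 genes in M1, M2, M0 and Ctrl cells, with 1 point per library and a bar for mean ± SD (n = 3); each panel has its own axis from 0. PARP9, DTX3L, PARP14, PARP10 and PARP12 stand highest in all 3 M1 libraries, ZC3HAV1 is lowest in M0, and PARP1 is highest in Ctrl.

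Because PARP9, DTX3L and PARP14 lie in the same region of chr3, their reads were also compared as ratios within each library, which need no scaling between libraries. PARP9 reads were 28.5, 27.0 and 28.1% of DTX3L reads in M1 cells, 16.1, 16.2 and 16.4% in M2 cells, 14.5, 14.1 and 14.9% in M0 cells, and 30.8, 34.5 and 32.2% in Ctrl cells. No 2 groups overlapped, and the ratio was highest in Ctrl and lowest in M0, so the 2 genes did not keep a fixed proportion across media. An exact permutation test of the 4 groups over all 369600 arrangements gave p = 6.49e-05, the smallest they can give, and 0.000195 adjusted over the 3 ratios. The exonic overlap of the pair is included in these reads, and its part in the ratio was not tested.

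PARP14 reads were 61.6 ± 1.35% of DTX3L reads in M1 cells, 44.7 ± 1.65% in M2 cells, 43.2 ± 4.41% in M0 cells and 45.2 ± 1.88% in Ctrl cells (exact permutation test, adjusted p = 0.0123). M1 libraries, at 60.0 to 62.6%, lay above the rest, which overlapped one another at 39.0 to 47.8%. PARP9 reads were 45.3 ± 0.302% of PARP14 reads in M1 cells, 36.3 ± 1.03% in M2 cells, 33.9 ± 4.38% in M0 cells and 72.1 ± 6.35% in Ctrl cells (exact permutation test, adjusted p = 0.000487). Ctrl cells again held the most PARP9 relative to the other gene, and M2 and M0 overlapped.

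**Figure D2:**
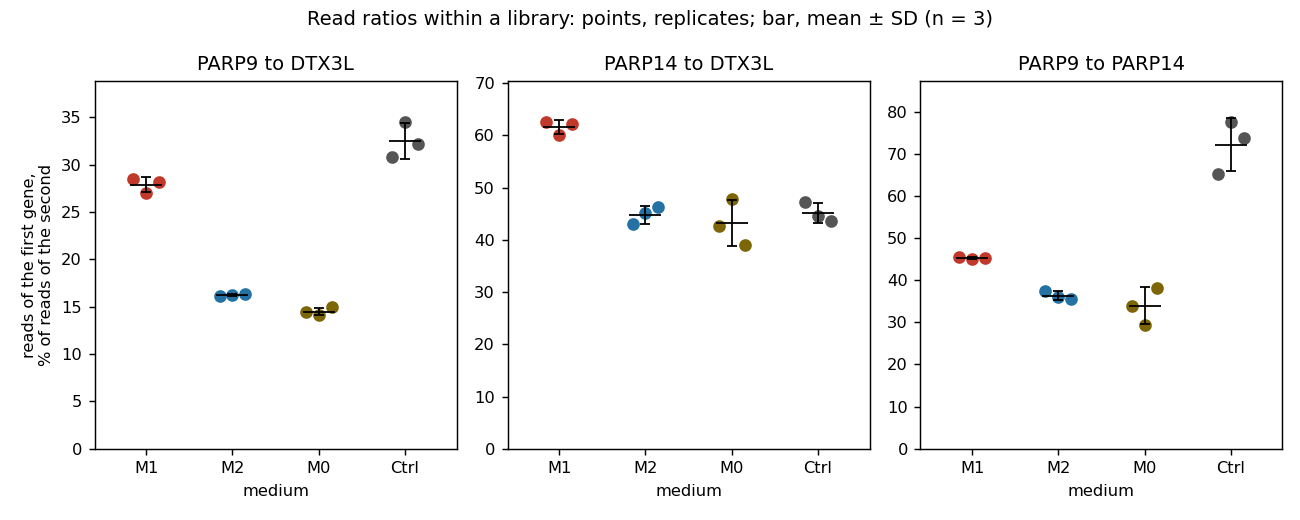
Reads of the first gene as a percent of reads of the second within each library, for PARP9 to DTX3L, PARP14 to DTX3L and PARP9 to PARP14, in M1, M2, M0 and Ctrl cells; points are libraries and bars are mean ± SD (n = 3). The PARP9 to DTX3L ratio separates all 4 media, from 14.1 to 14.9% in M0 up to 30.8 to 34.5% in Ctrl, whereas the PARP14 to DTX3L ratio sets M1 alone apart.

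PARP10 and PARP12, both mono-ADP-ribosyltransferases, rose in M1 cells by different amounts. PARP10 had 45.8, 29.9 and 52.6 CPM in M1 cells, 8.22, 7.56 and 7.94 CPM in M2 cells, 5.20, 5.87 and 5.40 CPM in M0 cells, and 6.07, 5.69 and 6.25 CPM in Ctrl cells. All M1 libraries were above all others although M1 replicate 2 was well below its fellows, and M0 and Ctrl overlapped. PARP10 was 7.82-fold higher in M1 than in M0 cells (log2 2.97, SE 0.25, adjusted p = 1.77e-09). In M2 against M0 it passed narrowly (log2 0.53, SE 0.06, adjusted p = 0.0377) and lost the call without any single one of the 6 libraries, with adjusted p of 0.0515 to 0.132. In M2 against Ctrl it did not pass (log2 0.40, adjusted p = 0.0501), although the groups did not overlap.

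PARP10 shares 324 exonic bases, 5.37% of its exons, with GRINA on the opposite strand. Reads from those bases cannot be told apart if the counting did not use strand, which is not known. GRINA stood at 318 ± 18.5 CPM in M1 cells, 279 ± 10.4 in M2 cells, 233 ± 30.0 in M0 cells and 155 ± 5.48 in Ctrl cells, and rose in M1 against M0 by 0.45 on the log2 scale (adjusted p = 0.000254), against 2.97 for PARP10. GRINA also differed between M0 and Ctrl (log2 0.59, adjusted p = 1.36e-05), where PARP10 did not pass (log2 -0.14, adjusted p = 0.525). The part of GRINA reads in the PARP10 counts was not tested.

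PARP12, which has RNA-binding zinc fingers like ZC3HAV1, had 89.3, 99.2 and 93.4 CPM in M1 cells, 34.7, 38.1 and 37.2 CPM in M2 cells, 30.2, 28.9 and 28.3 CPM in M0 cells, and 21.6, 24.0 and 23.1 CPM in Ctrl cells. The 4 groups stood apart in that order, and PARP12 was the only interferon-linked member called higher in M0 than in Ctrl cells (log2 0.35, SE 0.05, adjusted p = 0.000537). The rise in M1 over M0 cells was 3.22-fold (log2 1.69, SE 0.05, adjusted p = 4.03e-11), and that in M2 over M0 cells was 1.26-fold (log2 0.33, SE 0.05, adjusted p = 0.00412). Against Ctrl, log2 fold changes were 2.04 in M1 cells (adjusted p = 9.33e-13) and 0.68 in M2 cells (adjusted p = 4.78e-07).

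ZC3HAV1 was low in M0 cells, below Ctrl, as PARP9 was (log2 -1.06 for PARP9). Unlike the other interferon-linked genes, ZC3HAV1 had an M1 level near that of Ctrl cells. It had 116, 155 and 129 CPM in M1 cells, 80.7, 115 and 102 CPM in M2 cells, 53.3, 69.7 and 35.8 CPM in M0 cells, and 127, 114 and 105 CPM in Ctrl cells. All M0 libraries were below all others, M1 was above M2 without overlap, and Ctrl overlapped with both. ZC3HAV1 fell in M0 against Ctrl cells (log2 -1.13, SE 0.29, adjusted p = 7.77e-05) and was higher than M0 in M1 cells (log2 1.34, SE 0.30, adjusted p = 2.98e-05) and in M2 cells (log2 0.91, SE 0.32, adjusted p = 0.0035). It did not pass in M1 against Ctrl (log2 0.21, adjusted p = 0.319), in M2 against Ctrl (log2 -0.22, adjusted p = 0.300) or in M1 against M2 (log2 0.42, adjusted p = 0.0848). M0 replicate 3 was the lowest of its group. Without it and M2 replicate 2 the M0 against Ctrl value was -0.93 (adjusted p = 0.000128), the M1 against M0 value 1.13 (adjusted p = 6.32e-05) and the M2 against M0 value 0.58 (adjusted p = 0.0586), and M1 against M2 passed (log2 0.55, adjusted p = 0.0109).

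PARP1, outside the interferon set, separated Ctrl from all conditioned media and did not separate the media from each other. It had 106, 112 and 103 CPM in M1 cells, 105, 109 and 106 CPM in M2 cells, 109, 108 and 130 CPM in M0 cells, and 244, 256 and 258 CPM in Ctrl cells. The 3 conditioned groups overlapped, and every Ctrl library was above all of them. Against Ctrl, PARP1 fell in M1 cells (log2 -1.24, SE 0.04, adjusted p = 5.18e-10), in M2 cells (log2 -1.24, SE 0.03, adjusted p = 7.77e-10) and in M0 cells (log2 -1.12, SE 0.09, adjusted p = 2.96e-09). Among the conditioned media no pair passed (log2 -0.12 for M1 against M0, -0.12 for M2 against M0 and 0.00 for M1 against M2, with adjusted p of 0.190, 0.231 and 0.968), and the joint test of M0, M1 and M2 gave 0.252. The pseudogenes PARP1P1 and PARP1P2 had 9 reads and no read in the 12 libraries together.

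PARP8, a family member whose function is little known, had 34.2, 31.9 and 32.0 CPM in M1 cells, 23.6, 24.3 and 24.0 CPM in M2 cells, 26.1, 23.9 and 27.1 CPM in M0 cells, and 18.1, 17.7 and 17.1 CPM in Ctrl cells. M1 was highest and Ctrl lowest without overlap, and M2 and M0 overlapped. PARP8 rose in M1 against M0 cells (log2 0.35, SE 0.06, adjusted p = 0.000835) and against Ctrl in M1, M2 and M0 cells, with log2 fold changes of 0.89, 0.44 and 0.55 (adjusted p = 2.21e-08, 6.02e-05 and 9.67e-06).

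**Figure D3:**
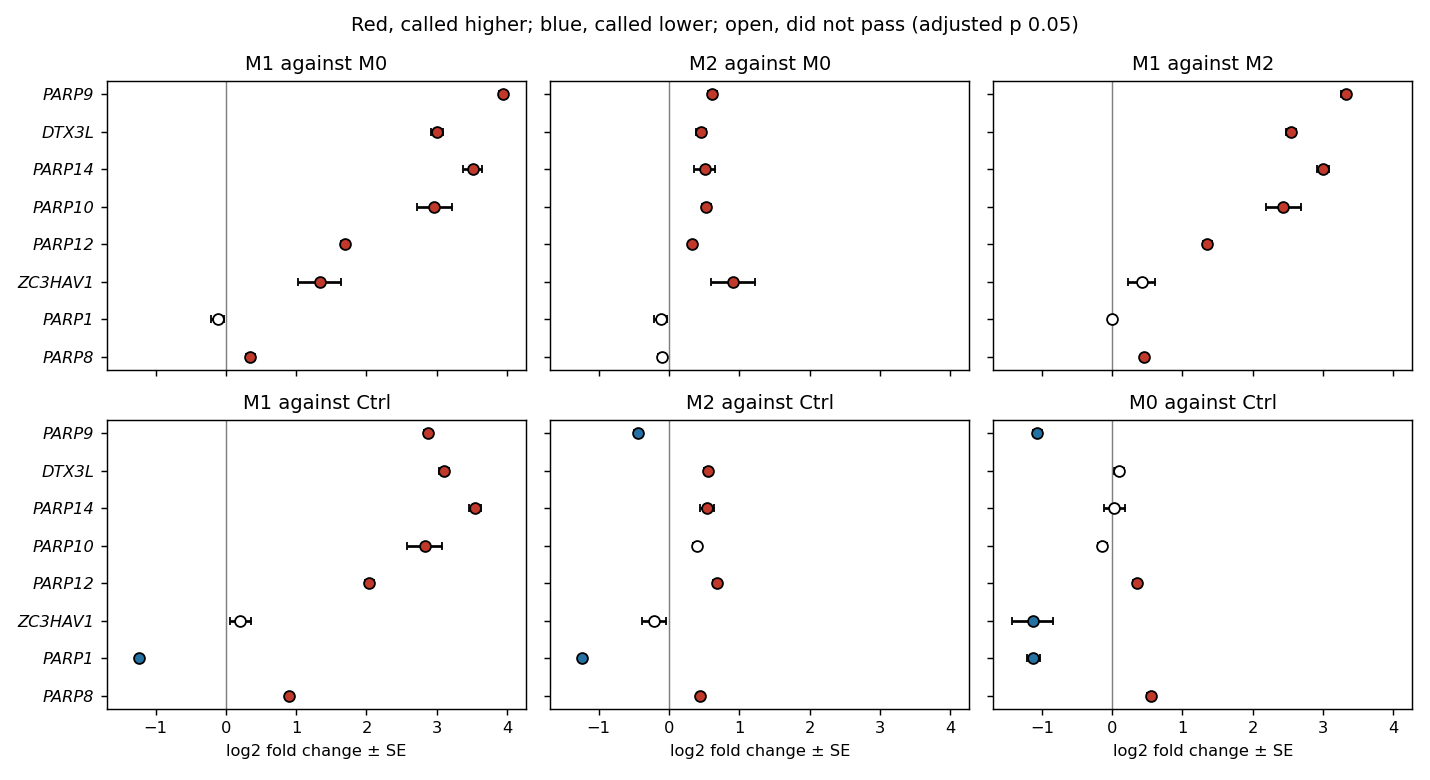
Log2 fold change ± SE of the 8 genes in each of 6 comparisons on a common axis; the SE is estimated from the log2 CPM of the 3 libraries on each side. In M1 against M0 the values run from -0.12 for PARP1 to 3.94 for PARP9, in M2 against M0 none exceeds 0.91, and in M0 against Ctrl PARP9, ZC3HAV1 and PARP1 were called lower.

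In M1 against M0, 7 of 8 members were called higher, all but PARP1, where 25.5% of all genes tested were called higher and 26.7% lower. The 6 interferon-linked members had a median log2 fold change of 2.98, beside -0.01 for all genes. In M1 against M2, 6 of 8 were called higher, PARP8 and the interferon-linked members other than ZC3HAV1, where 15.9% of all genes were higher and 16.6% lower, and the interferon-linked median was 2.49 beside -0.03 for all genes. The joint test of M0, M1 and M2 called 7 of 8, all but PARP1, where it called 56.6% of all genes. M1 against M0 and M1 against M2 share the M1 libraries, so these counts are not independent of each other.

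In M2 against M0, the 6 interferon-linked members were called higher and PARP1 and PARP8 did not pass, where 12.5% of all genes were called higher and 12.7% lower. The differences were small, with a median of 0.52 beside 0.00 for all genes. With any single M0 or M2 library left out, 5 of the 6 calls were kept, all but that of PARP10. Without M0 replicate 3 and M2 replicate 2, the calls for PARP9 (log2 0.55, adjusted p = 0.0117) and DTX3L (log2 0.37, adjusted p = 0.0305) were kept. Those for PARP14 (log2 0.35, adjusted p = 0.0604), PARP12 (log2 0.29, adjusted p = 0.0800), ZC3HAV1 (log2 0.58, adjusted p = 0.0586) and PARP10 (log2 0.56, adjusted p = 0.205) ended, and 303 genes in all were called higher and 217 lower.

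Against Ctrl, M1 cells had 6 of 8 members higher and 1 lower, PARP1, where 35.2% of all genes were called higher and 35% lower. M2 cells had 4 higher, DTX3L, PARP14, PARP12 and PARP8, and 2 lower, PARP9 and PARP1, where 34.1% of all genes were higher and 32.4% lower. M0 cells had 2 higher, PARP12 and PARP8, and 3 lower, PARP9, ZC3HAV1 and PARP1, where 31.1% of all genes were higher and 30.6% lower. The shares for M2 and M0 are near those over all genes. The interferon-linked median was 2.86 in M1, 0.47 in M2 and -0.05 in M0 cells. These 3 comparisons share the Ctrl libraries.

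Levels can be compared between genes only per length, here as CPM per kb of merged exon (RPKM). In M1 cells DTX3L was the most abundant member at 96.7 ± 7.43, followed by PARP14 at 33.3 ± 1.82 and PARP9 at 17.7 ± 0.871. PARP9, ZC3HAV1 (16.2 ± 2.43), PARP12 (14.9 ± 0.794) and PARP1 (14.9 ± 0.637) did not differ from their neighbours in that order beyond the range of their libraries. PARP10 at 7.09 ± 1.94 and PARP8 at 3.25 ± 0.128 came last.

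In M2 cells the order of mean RPKM was DTX3L (16.6), PARP1 (14.9), ZC3HAV1 (12.1), PARP12 (5.84), PARP14 (4.15), PARP8 (2.38), PARP9 (1.77) and PARP10 (1.31), with no overlap between neighbours. In M0 cells PARP1 led at 16.1, ahead of DTX3L (12.1), ZC3HAV1 (6.43), PARP12 (4.63), PARP14 (2.92), PARP8 (2.56), PARP9 (1.15) and PARP10 (0.909), and the pairs ZC3HAV1 with PARP12 and PARP14 with PARP8 overlapped. In Ctrl cells PARP1 led at 35.2, ahead of ZC3HAV1 (14.0), DTX3L (11.3), PARP12 (3.65), PARP14 (2.85), PARP9 (2.40), PARP8 (1.75) and PARP10 (0.996), with no overlap. DTX3L thus stood first after M1 and M2 medium, and PARP1 first after M0 and Ctrl medium.

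**Figure D4:**
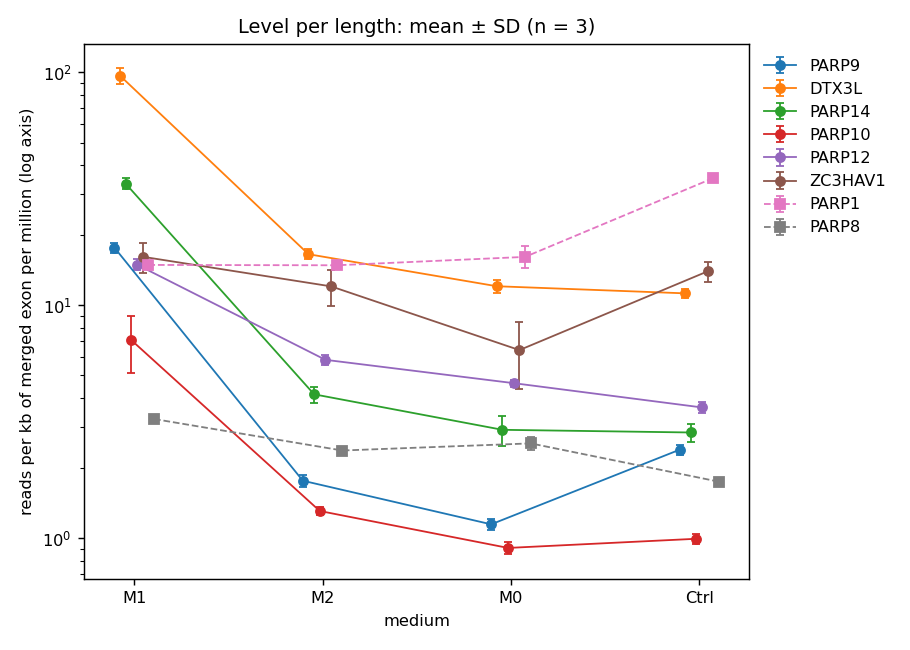
Mean level per length ± SD (n = 3) of the 8 genes in M1, M2, M0 and Ctrl cells on a log axis, with PARP1 and PARP8 drawn as squares; lines only join the same gene. DTX3L leads in M1 at 96.7 RPKM and PARP1 leads in Ctrl at 35.2 RPKM, while PARP10 is the least abundant in M2, M0 and Ctrl.

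In M1 against M0 the log2 fold changes of the wider family lay between -0.46 and 0.72, below those of the 6 interferon-linked genes, and PARP8 and PARP1 lay within that range. Of 10 other ADP-ribosyltransferases 9 passed the filter. There 6 were called higher and PARP2 lower, where 25.5% of all genes were higher and 26.7% lower. Their median log2 fold change was 0.20. PARP6, at 91.6 ± 9.51 CPM in M1 cells and 55.7 ± 8.03 CPM in M0 cells, had the largest rise (log2 0.72, SE 0.15, adjusted p = 2.37e-05), followed by PARP3 (log2 0.60, adjusted p = 0.000437). TIPARP, induced by the aryl hydrocarbon receptor, rose by 0.28 (adjusted p = 0.00203), PARP11 by 0.24 (adjusted p = 0.0198), the tankyrase TNKS2 by 0.20 (adjusted p = 0.0149) and PARP4 by 0.19 (adjusted p = 0.0288), of which PARP4 lost its call in 4 of the alternative settings and PARP11 in 1. PARP2, the DNA break sensor closest to PARP1, fell (log2 -0.46, SE 0.10, adjusted p = 0.00102). In M2 against M0 only PARP6 was called (log2 0.54, adjusted p = 0.00202).

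Against Ctrl, M0 cells had 4 of the 9 higher, PARP6 (log2 0.57), TNKS (log2 0.50), PARP11 (log2 0.39) and TNKS2 (log2 0.20), and 2 lower, PARP4 (log2 -0.80, adjusted p = 8.56e-08) and PARP2 (log2 -0.24, adjusted p = 0.0389). Over all genes 31.1% were higher and 30.6% lower there, so with 9 genes these counts are near the background. The calls for PARP2 and TNKS2 there ended in 5 and 3 of the alternative settings. PARP4, the vault-associated member, had 115 ± 3.67 CPM in M1 cells, 95.3 ± 3.84 in M2 cells, 100.4 ± 9.82 in M0 cells and 175 ± 0.569 in Ctrl cells. Like PARP1 and PARP2, it was called lower than Ctrl after all 3 conditioned media. Of the other Deltex ligases 3 of 4 passed the filter, and DTX2 and DTX3 did not pass in M1 against M0. DTX4 met the filter through its M1 libraries, with 16 to 31 reads each, against 7 to 11 in M2, 5 to 7 in M0 and 7 to 16 in Ctrl libraries, so a higher M1 level was favoured by the filter and its call is not counted here.

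**Figure D5:**
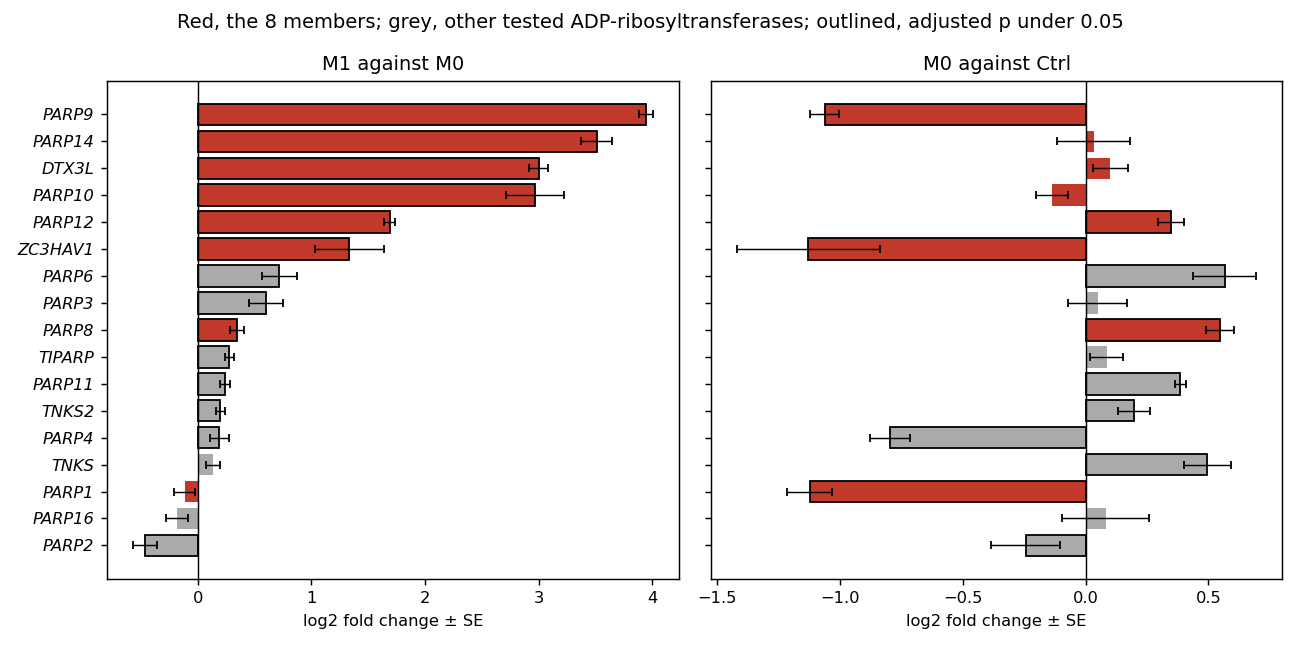
Log2 fold change ± SE of the 8 members (red) and the 9 other ADP-ribosyltransferases that passed the filter (grey), for M1 against M0 and M0 against Ctrl; an outlined bar passed at adjusted p under 0.05. The 6 interferon-linked members head the M1 against M0 order, from 1.34 for ZC3HAV1 to 3.94 for PARP9, and the next is PARP6 at 0.72; PARP1, ZC3HAV1, PARP9 and PARP4 have the most negative values in M0 against Ctrl.

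Genes that remove or bind ADP-ribose showed no common rise. Of 11 listed 10 passed the filter. In M1 against M0 1 was called higher and 3 lower, where 25.5% of all genes were higher and 26.7% lower. The median was -0.10. ADPRH, an ADP-ribosylarginine hydrolase, rose (log2 0.85, adjusted p = 0.00198), while the macrodomain hydrolase MACROD1 (log2 -0.69, adjusted p = 0.000177) and the hydrolases NUDT5 (log2 -0.37, adjusted p = 0.000513) and NUDT16 (log2 -0.24, adjusted p = 0.0389, a call that ended in 10 of the alternative settings) fell. PARG, which degrades the chains that PARP1 makes, did not pass in M1 against M0 (log2 0.20, adjusted p = 0.0924).

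The cofactors of ZC3HAV1 were compared because its own level was near Ctrl in M1 cells. All 6 passed the filter, and in M1 against M0 5 were called higher and the helicase DHX30 lower (log2 -0.36, adjusted p = 0.000711). Beside these counts, 25.5% of all genes were called higher and 26.7% lower. TRIM25, the ubiquitin ligase that ZC3HAV1 needs, had 629.9 ± 19.9 CPM in M1 cells, 569.8 ± 8.34 in M2 cells, 539 ± 22.2 in M0 cells and 133 ± 3.53 in Ctrl cells. All conditioned media stood far above Ctrl (log2 2.24 in M1, 2.10 in M2 and 2.02 in M0 cells), and M1 differed little from M0 (log2 0.23, adjusted p = 0.00286). KHNYN, the putative nuclease partner, rose in M1 (log2 0.36, adjusted p = 0.000219) and in M2 cells (log2 0.35, adjusted p = 0.00183) against M0, and N4BP1 rose in M1 cells (log2 0.66, adjusted p = 1.24e-07).

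The transcription factors STAT2, IRF1 and IRF9 of the interferon response rose in M1 against M0. STAT2 had 161 ± 7.54 CPM in M1 cells and 25.0 ± 4.82 CPM in M0 cells (log2 2.68, adjusted p = 4.38e-11), and IRF1 had 103 ± 5.31 CPM in M1 cells and 23.5 ± 2.77 CPM in M0 cells (log2 2.14, adjusted p = 1.31e-10). IRF9 was at low levels, 1.91 ± 0.351 CPM in M1 cells and 0.123 ± 0.0258 CPM in M0 cells (log2 3.89, adjusted p = 7.75e-07). In M2 against M0, STAT2 (log2 0.76), IRF1 (log2 0.57) and IRF9 (log2 2.22) were called higher, with adjusted p of 0.000787, 0.00137 and 0.00343. Against Ctrl, M0 cells had IRF1 higher (log2 0.36, adjusted p = 0.0055) and IRF9 lower (log2 -2.27, adjusted p = 0.000347), and STAT2 did not pass (log2 -0.02, adjusted p = 0.908).

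Transcripts of the interferons listed were scarce in MV3 cells at 24 h, and IFNA1 was the only IFNA gene listed. Of 8 listed genes 1, IFNE, passed the filter, and it did not pass the test in M1 against M0 (log2 0.50, adjusted p = 0.246). IFNG, IFNA1, IFNK, IFNL2 and IFNL3 had no read in any library, IFNB1 had 1 read in M1 and 1 in M2 cells, and IFNL1 had 1 read in M1 cells. A count of 0 allows up to 3 counts, 0.0699 to 0.138 CPM in a single library, and covers counting error only.

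The repair partners of PARP1 were mixed. All 10 passed the filter. In M1 against M0 2 were called higher and 6 lower, where 25.5% of all genes were higher and 26.7% lower. The median log2 fold change was -0.20. Of the lower calls, those of APTX and CHD1L ended in 7 and 5 of the alternative settings. APLF rose (log2 1.55, adjusted p = 2.71e-06) at 5.87 ± 0.565 CPM in M1 cells and 2.01 ± 0.414 CPM in M0 cells, whereas TIMELESS (log2 -0.81, adjusted p = 3.55e-06) and the polymerase POLB (log2 -0.59, adjusted p = 0.000316) fell. HPF1, the factor that completes the PARP1 active site, had the calls of PARP1 in these comparisons: it did not pass in M1 against M0 (log2 0.01, adjusted p = 0.951) and was lower than Ctrl in M1 (log2 -0.82), M2 (log2 -1.05) and M0 cells (log2 -0.83), with adjusted p of 6.06e-05, 6.92e-06 and 9.07e-05.

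Of 10 listed genes of NAD metabolism, NAD being the substrate of ADP-ribosylation, 8 passed the filter. The list includes NNMT, which methylates nicotinamide and does not supply NAD. NNMT had 153 ± 3.80 CPM in M1 cells and 236 ± 15.4 CPM in M0 cells. Called in M1 against M0 were 3 higher and 3 lower, where 25.5% of all genes were higher and 26.7% lower. NAMPT, the rate-limiting enzyme of NAD salvage, had 1715 ± 101 CPM in M1 cells, 776 ± 26.5 in M2 cells, 843 ± 11.1 in M0 cells and 62.7 ± 3.10 in Ctrl cells. It rose in M1 over M0 cells (log2 1.02, SE 0.05, adjusted p = 3.41e-09) and was far above Ctrl in all conditioned groups (log2 4.77 in M1, 3.63 in M2 and 3.75 in M0 cells). QPRT, of the de novo route, fell in M1 against M0 cells (log2 -2.03, adjusted p = 1.98e-05), with 0.662 ± 0.236 CPM in M1 cells and 2.74 ± 0.752 CPM in M0 cells.

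Over the 12 libraries genes among the most like PARP9 in pattern, by the root mean square (RMS) difference of log2 CPM centred on each gene's own mean, were SAMD9 (0.36), CMPK2 (0.37), GCA (0.40) and SAMD9L (0.42) among 14087 genes with a median of 1.55. CMPK2 was at 0.871 ± 0.165 CPM in M1 cells and had no read in M0 cells, and it met the filter through M1 alone. Its likeness to a gene that is high in M1 is thus favoured by the filter, and its values in the other groups are set largely by the prior count. PARP14 ranked 6th at 0.44, DTX3L 13th at 0.50 and PARP10 18th at 0.52, while PARP12 ranked 150th at 0.90, ZC3HAV1 591st, PARP8 1588th at 1.35 and PARP1 11038th at 1.69. The genes most like PARP1 were POP1 (0.05), WDCP (0.06), CALM3 (0.07), TRMU (0.07) and GRWD1 (0.08), with a median over all genes of 0.60. POP1 had 33.4 ± 1.37 CPM in M1 cells, 33.1 ± 0.787 in M2 cells, 36.8 ± 3.58 in M0 cells and 76.9 ± 1.46 in Ctrl cells.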

How the data were processed

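RNA of 12 samples, 3 in each of 4 groups taken from the labels, was sequenced from stranded mRNA libraries as single 50 nt reads in 2 runs, per the labels' protocols. Alignment tools in the submitters' processing notes are STAR 2.5.4b and Bowtie2 2.2.3 on build hg38, beside Trimmomatic 0.36, FastQC 0.11.7, DESeq2 1.20.0 and R (3.5.0 and 3.3.3). For the annotation, the counter and its use of strand, the answer is not given in the sources used here. Raw read counts per gene were deposited by the authors, and the per-sample count files equalled the joint table in 12 of 12 samples. The authors also deposited a table named as variance-stabilized, on a log2 scale, used only as an alternative and for gene symbols.

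Tests on the counts used edgeR 4.0.16 (R 4.3.3) with filterByExpr (minimum count 10, minimum total 15), TMM scaling, 1 quasi-likelihood fit of 4 group means and Benjamini-Hochberg adjustment over 14088 genes at 0.05. The common biological coefficient of variation was 0.0831. CPM used the TMM-scaled library sizes of tested genes; SE comes from the spread of log2 CPM (prior count 2) over the libraries compared and is a separate estimate from the fit. RPKM divides CPM by merged exon length from GENCODE 29 on GRCh38, which matched 58025 of 58288 identifiers without and 55661 with their version; PARP14 matched without it. Read ratios were tested by exact permutation over samples of the sum of squares between groups, which has no direction. The fit was tested on simulated data.

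The members, gene lists and tests were chosen with earlier results of these data known. Named genes were all members, listed genes that passed the test, with counts for the rest, and the 5 genes nearest to PARP9 and to PARP1 in pattern, of which some results are not reported here; a few listed genes that did not pass are named with their values. Replicates differed by more than sampling noise (chi-square per degree of freedom 3.01 to 25.6), so none was merged. Alternatives were DESeq2 1.42.0 and its size factors, no filter, limma 3.58.1 on the deposited log2 values, fits of the compared groups alone, a replicate block, and fits without single libraries or without M0 replicate 3 and M2 replicate 2.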

Additional observations from a re-analysis of the deposited data

How the results depend on the processing

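For the 48 values of 8 members in 6 comparisons, 624 alternative values kept direction wherever a call was made; 603 stayed on their side of the threshold, 10 lost a call and 11 gained one. The losses were all in M2 against M0, where 5 members were called higher without any single library and 2 without M0 replicate 3 and M2 replicate 2, beside 6 with all libraries, and 303 genes were called higher and 217 lower without those 2 libraries. Without single libraries, the calls over all genes ran from 850 to 1961 higher and from 745 to 1945 lower in M2 against M0, beside 1765 and 1788 with all libraries; the lowest came without M0 replicate 3, with 1020 and 913 called without M2 replicate 2 and 977 and 928 without M2 replicate 3. In M1 against M2, lower calls ran from 1528, without M2 replicate 1, to 2013, beside 2332. The cause was not tested.

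The gains were in ZC3HAV1 and PARP10. ZC3HAV1 passed in M1 against M2 with no filter (adjusted p = 9.48e-08), with only the groups compared (0.0297) and without M0 replicate 3 and M2 replicate 2 (0.0109), in M1 against Ctrl with no filter (0.0247), and in M2 against Ctrl with no filter (0.0051) and without those 2 libraries (0.0473). PARP10 passed in M2 against Ctrl with no filter (0.0127), with DESeq2 (0.0466) and with only the groups compared (0.00601). With no filter the log2 values of ZC3HAV1 were 0.453, 0.205 and -0.248 in M1 against M2, M1 against Ctrl and M2 against Ctrl. With the filter they were 0.423, 0.206 and -0.217, so those gains came from lower adjusted p-values. Why the p-values fell was not tested. Libraries of the same replicate number correlated at -0.08 to 0.15 after centring on group means. In M1 against M2 and in M1 against Ctrl, each same-number correlation exceeded those with other numbers. In M2 against Ctrl none did, and the remaining comparisons were mixed. Such correlations, taken around means of 3 libraries, cannot decide whether the samples were paired. With the replicate block, ZC3HAV1 passed in M1 against M2 (log2 0.42, adjusted p = 0.0436) and PARP10 in M2 against Ctrl (log2 0.40, adjusted p = 0.0331), which made 7 members called higher in M1 against M2 and 5 in M2 against Ctrl. No read ratio lost its call, with adjusted p of 0.00521, 0.0399 and 0.00521 for PARP9 to DTX3L, PARP14 to DTX3L and PARP9 to PARP14 when permuted within replicate numbers.

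For 69 other named or listed genes, 5376 alternative values held 233 lost and 68 gained calls and no reversal. Of the calls that the text names, those lost in M1 against M0 included PARP4, NUDT16 and PARP11, in 4, 10 and 1 settings. APTX and CHD1L lost theirs there in 7 and 5 settings. In M0 against Ctrl, PARP2 and TNKS2 lost theirs in 5 and 3.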
